A study of Mus musculus with 4 samples.

Results

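The genes described are those of bone morphogenetic protein (BMP), transforming growth factor beta (TGF-beta) and activin signalling, taken as every probe whose gene symbol in the platform annotation names a Bmp, Gdf, Smad, Bmpr, Acvr, Tgfbr, Inhb or Tgfb gene, or is Inha, Nog, Chrd, Chrdl1, Grem1, Fst, Bambi or Id1 to Id4. The symbols gave 55 genes, on 60 probes, out of 15096 genes that have a probe of a single symbol and 22702 probes in all, and the rule uses symbols, not measured values. The study compared metanephric mesenchyme (MM), the progenitor tissue of the nephrons, with intermediate mesoderm (IM), from which the urogenital system arises, both dissected from mouse embryos of both sexes at 10.5 days post coitum (dpc). RNA of both tissues was amplified and hybridised together, with no common reference, on 4 two-colour oligonucleotide arrays. MM was channel 1 and IM channel 2 on arrays 1 and 2, and the channels were exchanged on arrays 3 and 4, where the labels call the tissues Intermediate Mesenchyme and Metanephric mesoderm. Strain, number of embryos and pooling are not given in the labels. Values are log2 ratios, positive where a gene was higher in MM. This is the likely direction, since the titles put MM first and the authors had already reversed arrays 3 and 4, but no label names the dyes.

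In this family of pathways a secreted dimeric ligand brings together type II and type I receptors, serine/threonine kinases of the cell surface, and the type I receptor phosphorylates receptor Smads, which enter the nucleus with Smad4. Smad1, Smad5 and Smad9 carry BMP signals, and Smad2 and Smad3 carry TGF-beta and activin signals. In the forming kidney, Bmp7 keeps nephron progenitors alive, Bmp4 around the nephric duct restrains budding, Grem1 relieves that restraint, and Gdf11 acts in the mesenchyme upstream of Gdnf.

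Receptors, with 10 of the 34 tested probes, held 3 of the 5 probes that passed as higher in MM and 3 of the 5 that passed as lower. Of all tested probes, 13.6% passed as higher and 14.4% as lower. The higher receptor probes included both probes of Bmpr1a. Among the lower ones, Tgfbr2 had another probe that was tested and did not pass. Another probe of Bmpr2 lacked a value on array 3 and was not tested. It read 0.74 and 0.59 on arrays 1 and 2 and -0.35 on array 4. The type I receptor genes Acvr1 and Bmpr1a were 3.72-fold and up to 1.97-fold higher in MM. Acvrl1, also a type I receptor gene, went the other way and was 1.18-fold higher in IM. The type II receptor gene Bmpr2 was 1.82-fold higher in IM by the probe measured on all arrays. Leaving out array 1, 2 or 4 removed the calls of Acvr1 and Bmpr2. Id2, a target of BMP-activated Smads, was 1.22-fold higher in MM. It was the only one of the 4 Id genes that passed, and leaving out any array removed its call. The upstream sequences of Acvr1, Bmpr1a, Bmpr2 and Id2 are shown. These genes were picked as examples of members that passed the test and have an entry in the promoter table. The choice left out other receptors that passed, such as Acvrl1, and Id2 was among the smallest differences. The protease gene Bmp1, at 2.63-fold higher in MM, had the largest fold of the calls after Acvr1. Each line gives the 250 bases before the transcript start in RefSeq's table for GRCm38.p6, read 5′ to 3′ on the gene's strand, with each GGCGCC, a GC-rich motif bound by BMP Smads, in capitals.
Acvr1, chr2:58566829-58567078, minus strand: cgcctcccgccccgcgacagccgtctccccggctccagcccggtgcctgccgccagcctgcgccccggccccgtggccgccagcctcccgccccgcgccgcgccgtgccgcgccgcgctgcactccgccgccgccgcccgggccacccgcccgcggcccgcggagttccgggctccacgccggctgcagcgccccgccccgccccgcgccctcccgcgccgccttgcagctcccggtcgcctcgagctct
Bmpr1a, chr14:34502547-34502796, minus strand: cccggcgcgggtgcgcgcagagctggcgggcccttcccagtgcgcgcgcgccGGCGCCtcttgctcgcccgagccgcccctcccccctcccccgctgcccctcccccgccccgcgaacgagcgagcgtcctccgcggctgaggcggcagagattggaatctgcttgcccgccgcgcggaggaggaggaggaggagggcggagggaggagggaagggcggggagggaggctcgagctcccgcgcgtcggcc
Bmpr2, chr1:59764029-59764278, plus strand: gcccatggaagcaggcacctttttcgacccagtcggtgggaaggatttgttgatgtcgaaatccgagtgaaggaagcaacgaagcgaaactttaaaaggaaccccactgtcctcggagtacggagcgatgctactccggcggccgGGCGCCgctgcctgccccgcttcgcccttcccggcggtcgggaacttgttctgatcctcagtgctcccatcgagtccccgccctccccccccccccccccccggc
Id2, chr12:25096093-25096342, minus strand: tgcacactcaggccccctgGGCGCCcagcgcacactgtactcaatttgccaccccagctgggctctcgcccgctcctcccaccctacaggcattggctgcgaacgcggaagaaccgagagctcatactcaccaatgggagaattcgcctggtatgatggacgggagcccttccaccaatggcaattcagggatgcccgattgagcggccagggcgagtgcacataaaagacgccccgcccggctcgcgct
GGCGCC, which reads the same on both strands, occurred once each upstream of Bmpr1a, Bmpr2 and Id2, its first base at positions -198, -105 and -231 from the start. These letters were not in the window of Acvr1. The motif is in 9.59% of all 32851 windows of this length and in 26.1% of the 9178 windows with at least 60% G and C. The 4 windows had a G and C content of 62.8% to 85.6% (all windows, median 52.4%). The letters CAGAC, the core of a Smad box, and their reverse complement were in none of the 4 windows and in 42.2% of all. A match is a description of the letters and was not tested as a binding site. Of the 55 genes, 38 had an entry in the table.

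The arrays held 15812 to 21599 values each. A floor of -6.64, the log2 of a ratio of 0.01, was reached by 8 to 16 values on arrays 1 and 2 and by 1672 to 1805 on arrays 3 and 4, and such a value was not read as a measured fold. Among the 60 probes, 29 were measured above the floor on 4 arrays, 8 on 3 and 23 on 2. A value on every array, needed for the test, was present for 34 (56.7%), against 62.5% of all probes. The floor was reached on at least 1 array by 13 (21.7%, all probes 11.4%). Tissue labels were checked against fixed markers. Of 13 tested MM markers 6 were higher in MM, among them Six2 (3.00 ± 0.63) and Gdnf (1.92 ± 0.13), and 2 were lower, among them Wt1 (-1.57 ± 0.02), which both tissues use. Of 8 tested markers of IM and nephric duct, 3 were higher in IM, Wt1 again among them, and 2 in MM. Wt1, Osr1 and Pax2 were on both marker lists. Pax2 and Lhx1 did not pass.

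The test was limma's moderated test of the mean log2 ratio of the 4 arrays against 0, adjusted by the Benjamini-Hochberg method over all 14184 probes with 4 values, at a threshold of 0.05. Errors are SDs over 4 arrays. Whether each array carries its own extract is not in the labels, so p-values reflect array-to-array spread that may be technical only. Of the 34 tested probes, 5 (4 genes) were higher and 5 (5 genes) were lower in MM. Of all tested probes, 13.6% were higher and 14.4% lower. The members' shares, 14.7% in each direction, were near this background and set the group apart in neither direction. With the arrays centred on their medians, 5 were higher and 3 lower, beside 1935 and 1476 of all 14184 tested probes. A second fit with a term for channel orientation called 11 higher and 11 lower of the 34, against a background of 23.8% and 38.1% (61.9% in either direction; 28% in the first fit). All 10 calls of the first fit were among these, and each of the 10 probes had the same sign on 4 arrays, which passing the test nearly requires. Over all 34 tested members the share of equal sign was 47.1%, against 49.4% of all tested probes. The second fit added Bmp7, Tgfb3, Chrdl1, Grem1, Smad5 and Id4 as higher and Gdf2, Gdf9, Gdf10, Bmp5, Bambi and Tgfbr1 as lower, the last 3 resting on floor values. The median log2 ratio of the 29 probes above the floor was 0.01, and -0.05 over the 13191 such probes of the array. In whole tissue, fewer cells of a type and less RNA per cell cannot be told apart.

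**Figure D1:**
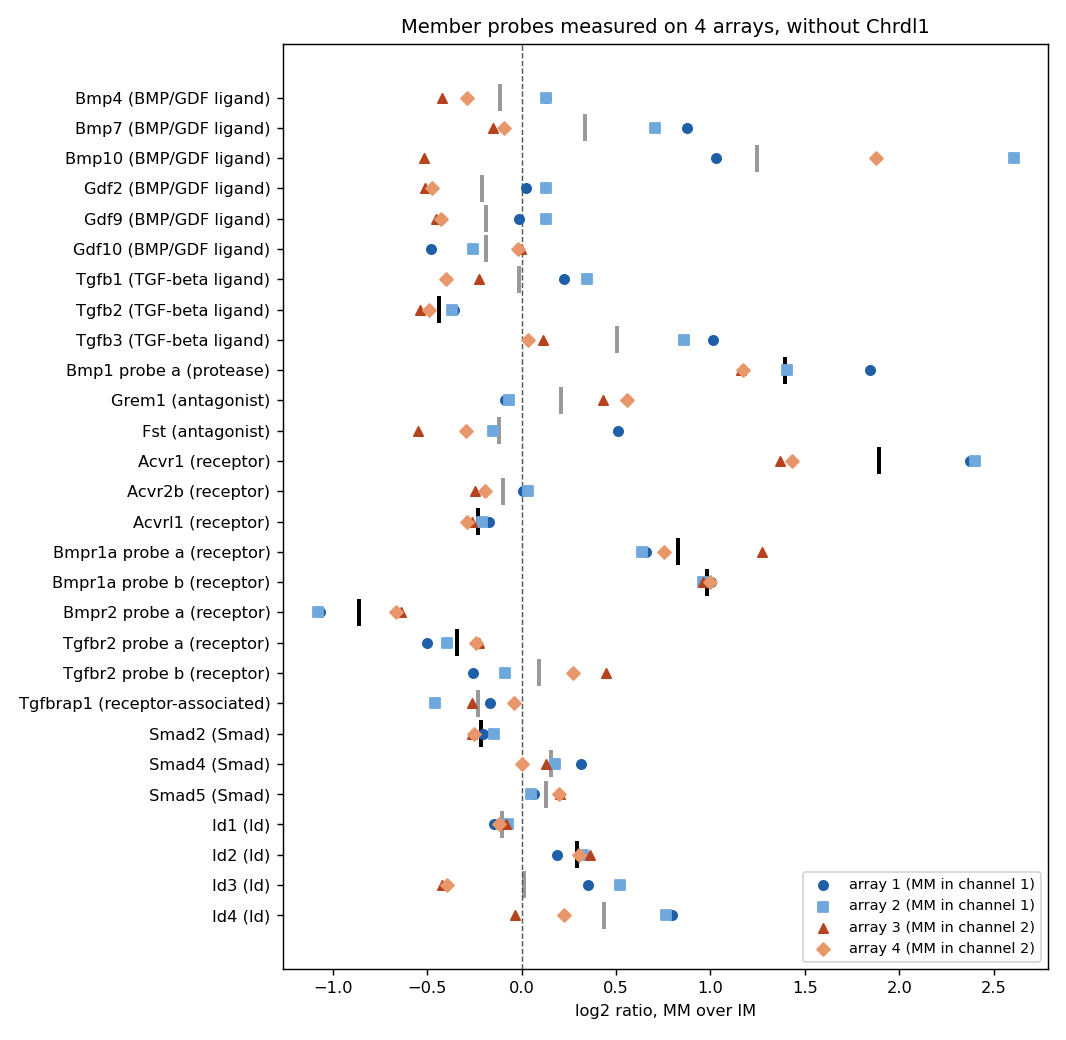
Log2 ratio, MM over IM (x axis), on each of the 4 arrays (symbols) for the 28 member probes other than Chrdl1 that were measured above the floor on every array, with the role of each gene (y axis). Vertical bars are means, black where the limma test passed and grey where it did not. Acvr1 stands farthest to the right at a mean of 1.89 and Bmpr2 probe a farthest to the left at -0.86.

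Acvr1, which encodes the type I receptor ALK2 for BMPs and activins, had the largest mean ratio of the members above the floor. It read 2.37, 2.40, 1.37 and 1.43 on arrays 1 to 4. All arrays were high, and those with MM in channel 1 were higher than the others. The mean was 1.89 ± 0.57 (limma adjusted p = 0.0128), and the orientation effect itself also passed (adjusted p = 0.00449).

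Bmpr1a, the type I receptor ALK3 for BMP ligands, had a pair of probes, here lettered a and b in the order of their GenBank records. Probe b gave 1.00, 0.96, 0.96 and 1.00, the closest agreement between arrays of any member above the floor. Its mean was 0.98 ± 0.02 (limma adjusted p = 0.00186). Probe a gave 0.66, 0.64, 1.27 and 0.75, with array 3 above the rest, and a mean of 0.83 ± 0.30 (adjusted p = 0.0209). The probes differed by 0.15 ± 0.31 on average, less than the spread of that difference over the arrays. Bmpr1b, a related type I receptor, was measured on 3 arrays at 0.40, 0.27 and -0.72, so its orientations were on opposite sides of 0.

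Bmpr2 encodes the main type II receptor for BMPs. Its probe a read -1.07, -1.08, -0.64 and -0.66. Every array was lower in MM, arrays 1 and 2 more so. The mean was -0.86 ± 0.25 (limma adjusted p = 0.0126). Probe b did not share this direction on arrays 1 and 2, where it read 0.74 and 0.59, and it read -0.35 on array 4 with no value on array 3. The direction of Bmpr2 thus rests on 1 of its probes.

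Acvrl1, the type I receptor ALK1 of endothelial cells, was slightly lower in MM on every array (-0.17, -0.21, -0.26 and -0.29). The mean was -0.23 ± 0.05 (limma adjusted p = 0.0312), and with the arrays centred on their medians the probe did not pass. The endothelial markers went both ways, with 3 of 9 tested higher, 2 lower and a median of -0.03, over a range of -0.52 to 0.79. Their part in the ratio of Acvrl1 was not tested.

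Tgfbr2, the type II receptor for TGF-beta, had a probe a that was lower in MM, at -0.50, -0.39, -0.23 and -0.24 (mean -0.34 ± 0.13, limma adjusted p = 0.0347). Probe b read -0.26, -0.09, 0.45 and 0.27 and did not pass (0.09 ± 0.32, adjusted p = 0.707). Probe a was below probe b on all 4 arrays, by 0.43 ± 0.20. Acvr2b, a type II receptor for activins, did not pass (-0.10 ± 0.14, adjusted p = 0.389), nor did Tgfbrap1, which encodes a protein that associates with TGF-beta receptors (-0.23 ± 0.18, adjusted p = 0.132).

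The other receptors had no usable mean. Tgfbr1, the type I receptor for TGF-beta, had values of -0.21 (array 1) and 0.72 (array 2), and the remaining pair of arrays held floor values. Acvr1b, the activin type I receptor ALK4, read -0.09 and 4.17 with the floor on arrays 3 and 4. Arrays 1 and 2 themselves differed widely for Acvr1b. Tgfbr3, betaglycan, a co-receptor that binds inhibin and TGF-beta, read -1.08 and -1.29 on arrays 1 and 2 and had no value on the others.

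Of the 19 probes of BMP and GDF ligands 8 could be tested, and none of these passed, against 28% of all tested probes. With the orientation term 1 was called higher and 4 lower, Bmp5 among the lower ones by floor values. Of all tested probes that fit called 23.8% higher and 38.1% lower. Bmp7 had values of 0.88, 0.71, -0.15 and -0.10 on arrays 1 to 4. The orientations did not overlap and lay on opposite sides of 0, with a mean of 0.34 ± 0.53 (limma adjusted p = 0.376, and 0.00835 with the orientation term). Bmp4 showed the same split on a smaller scale, at 0.13, 0.13, -0.42 and -0.29 (-0.11 ± 0.28, adjusted p = 0.59). Bmp10, a ligand of the developing heart, had the widest scatter of the ligands above the floor, at 1.03, 2.61, -0.52 and 1.88 (1.25 ± 1.34, adjusted p = 0.21).

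Gdf2, Gdf9 and Gdf10 had means of -0.21, -0.19 and -0.19 and did not pass (limma adjusted p = 0.277 to 0.381). Of these Gdf10 alone had the same sign on 4 arrays. Gdf11, which acts in the metanephric mesenchyme, was measured on 3 arrays at 0.50, 1.32 and -0.57. The first and second were arrays 1 and 2, and the negative value was array 3. Gdf1, whose coding sequence lies on the same transcript as that of Cers1, read 0.57, 0.24 and -0.03, and Gdf5, a factor of forming joints, and Gdf7 averaged 0.25 ± 0.30 and -0.33 ± 0.25 over 3 arrays. Gdf6 read -0.11 and -0.13 on arrays 1 and 2.

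Several ligands had large ratios on arrays 1 and 2 and the floor or no value on arrays 3 and 4. Bmp5 read 2.86 and 4.61 and then the floor on both others, Bmp8b 3.17 and 4.11 with the floor on array 4, and Bmp8a 1.51 and 0.59 with the floor on array 3. Bmp6 differed between arrays 1 and 2 (3.04 and -1.61) before the floor on arrays 3 and 4. Bmp2, by its probe b, read 1.17 and 0.64 and by its probe a 0.00 and 1.02, with no value on arrays 3 and 4. Oocyte ligand Bmp15 (-1.24 and -0.11) and the early embryonic ligand Gdf3 (-0.19 and -0.51) each had the floor on 1 further array. Their floor values give no fold in either direction.

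The TGF-beta ligands were all measured. Tgfb2 was lower in MM on every array, at -0.36, -0.37, -0.54 and -0.49, a 1.36-fold difference (-0.44 ± 0.09, limma adjusted p = 0.0109). Tgfb3 was on the higher side on every array but uneven, at 1.01 and 0.86 on arrays 1 and 2 against 0.12 and 0.04 on arrays 3 and 4 (0.51 ± 0.50, adjusted p = 0.186). Tgfb1 had opposite signs in the orientations, at 0.22, 0.35, -0.23 and -0.40 (-0.01 ± 0.36, adjusted p = 0.964).

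Inhibin and activin subunits could not be tested, since none of the 5 had a value on every array. Inha, the inhibin alpha subunit made in gonad and adrenal, was on the lower side of 0 on each of its 3 arrays, at -0.63, -0.72 and -1.08 (-0.81 ± 0.24, n = 3). When probes with 3 measured values were admitted and floor values set as missing, Inha was called lower in MM (limma adjusted p = 0.028). In the fit that admitted 3 or more values and kept floor values, Inha was not called. Of 8 tested markers (Wt1 among them) of gonadal ridge and adrenal, 5 were lower in MM and 1 higher, with a median of -0.98 over a range of -1.68 to 0.69, and their part in the ratio of Inha was not tested. Inhba, a subunit of activin A, was the only member with values on arrays 3 and 4 alone (1.55 and 0.39). Inhbb and Inhbe read 0.92 and 3.60, and 3.32 and 3.64, on arrays 1 and 2 with no value on the others. Inhbc read 0.26 and 0.03 with the floor on array 3.

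Bmp1, despite its name, encodes a protease that cleaves procollagen and the BMP antagonist chordin. Probe a read 1.84, 1.40, 1.16 and 1.17, high on every array, and was 2.63-fold higher in MM (1.40 ± 0.32, limma adjusted p = 0.00761). Its probe b read 3.21 and 3.75 on arrays 1 and 2 and had no value on arrays 3 and 4.

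Of the 6 antagonist probes 4 could be tested, and none of these passed, against 28% of all tested probes. Chrdl1, a chordin-like BMP antagonist, had values of -4.45, -4.62, 4.96 and 4.90 on arrays 1 to 4. Arrays of each orientation agreed closely and the orientations were opposed. The mean of 0.20 ± 5.46 (limma adjusted p = 0.968) describes neither. The difference of -9.46 between the orientations was the largest in size of all 13191 probes above the floor, whose median in size was 0.30. With the orientation term Chrdl1 was called higher (adjusted p = 0.027), a call that sets this difference aside.

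Grem1, the antagonist needed for ureteric bud outgrowth, was near 0 on arrays 1 and 2 (-0.09 and -0.07) and positive on arrays 3 and 4 (0.43 and 0.56), and did not pass (0.21 ± 0.34, limma adjusted p = 0.391). Fst, follistatin, which binds activin, had the reverse tendency with array 1 at 0.51 and the others at -0.15, -0.55 and -0.30 (adjusted p = 0.719). Chrd, chordin, was measured at 3.52 (array 1) and 4.11 (array 2) and reached the floor on array 4. Bambi, a pseudoreceptor without kinase domain, read 4.25 and 2.43 and then the floor on arrays 3 and 4. Noggin, Nog, read -1.45 and 3.64 on arrays 1 and 2, so that those arrays disagreed in sign, and had no value on the others.

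**Figure D2:**
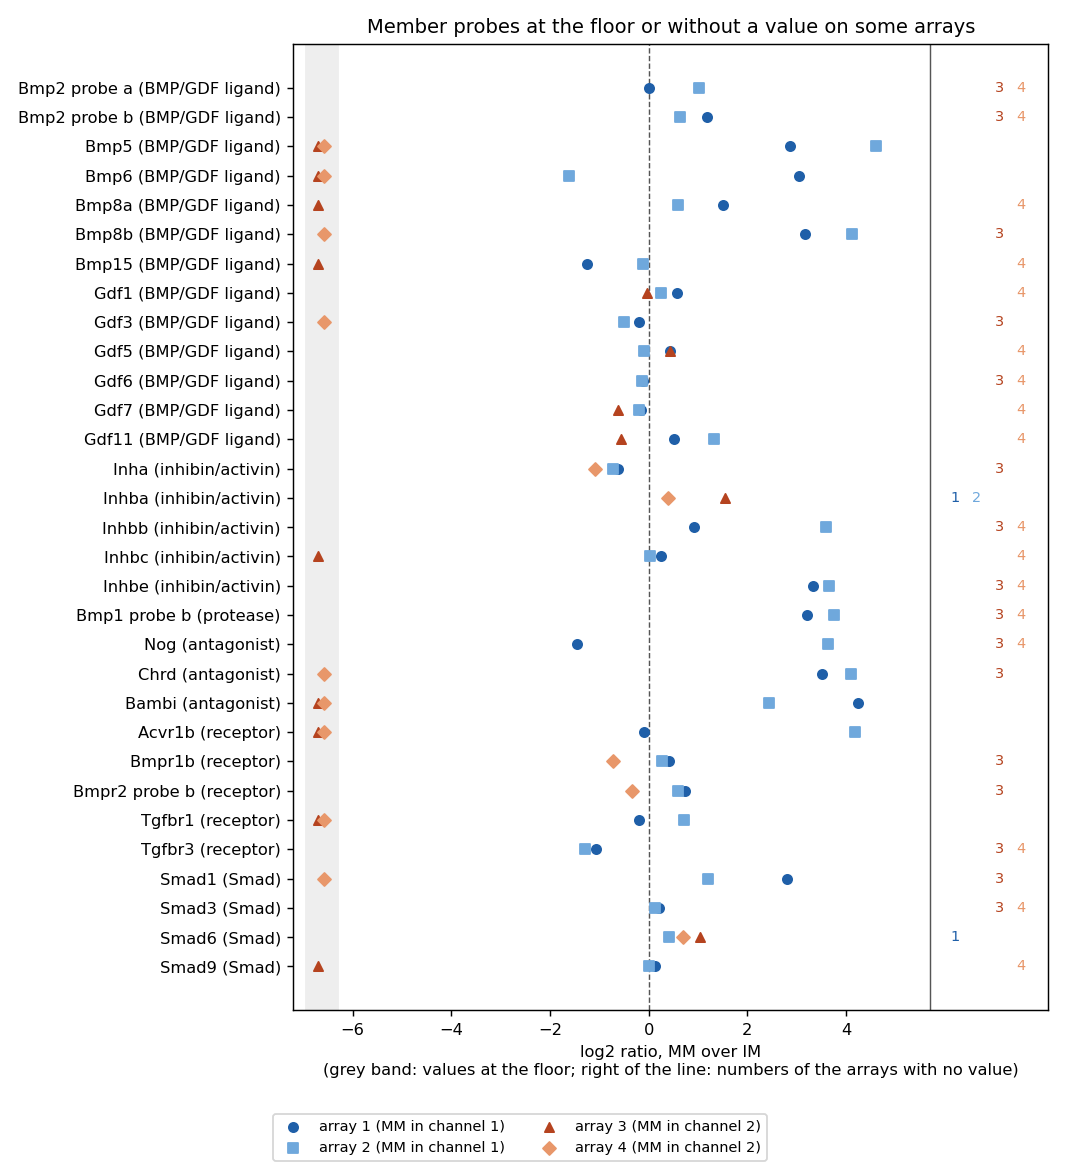
Log2 ratio, MM over IM (x axis), for the 31 member probes that were at the floor or without a value on at least 1 array (y axis). Symbols are arrays, the grey band on the left holds values at the floor of -6.64, drawn slightly apart so that both can be seen, and digits on the right name the arrays with no value. Bmp5, Bmp8b, Inhbe, Chrd and Bambi are high on arrays 1 and 2 and have no measured value on arrays 3 and 4.

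In all, 22 of the 60 probes (36.7%) were measured on arrays 1 and 2 and had the floor or no value on arrays 3 and 4, as did 29.6% of all probes. Of the 22, 7 were above 1 on both arrays 1 and 2 (31.8%, against 24.3% of all probes of this kind). The signals behind these ratios are not in the table, so their level over background is unknown.

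Of the 3 tested Smad probes, 1 passed, with a small ratio, against 28% of all tested probes. Smad2, which carries TGF-beta and activin signals, was lower in MM on every array, at -0.21, -0.15, -0.26 and -0.26. This was a 1.16-fold difference (-0.22 ± 0.05, limma adjusted p = 0.0362), and with the arrays centred on their medians it did not pass. Smad4, the shared partner (0.15 ± 0.13, adjusted p = 0.187), and Smad5, a BMP Smad (0.13 ± 0.08, adjusted p = 0.164), had positive values on 4 arrays and did not pass. Smad6, an inhibitory Smad that BMP signals induce, read 0.41, 1.05 and 0.70 on arrays 2 to 4. All of its values were above 0, and in the fit that admitted 3 values it did not pass (0.72 ± 0.32, n = 3, adjusted p = 0.0567). Smad1 read 2.81 and 1.19 and the floor on array 4, Smad9 0.12 and 0.01 and the floor on array 3, and Smad3 0.22 and 0.12 with no value on arrays 3 and 4.

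The Id genes encode helix-loop-helix proteins that hold back differentiation and are transcribed in response to BMP Smads. All 4 were measured on every array. Id2 was higher in MM by a small margin, at 0.19, 0.32, 0.36 and 0.30 (0.29 ± 0.08, limma adjusted p = 0.0241). Id1 was the opposite in sign and smaller, at -0.15, -0.07, -0.08 and -0.12, and did not pass (-0.11 ± 0.03, adjusted p = 0.15). Id3 was positive on arrays 1 and 2 (0.35 and 0.52) and negative on arrays 3 and 4 (-0.42 and -0.40). Id4 read 0.80 and 0.76 against -0.03 and 0.22 (0.44 ± 0.41, adjusted p = 0.169). Id2 was thus the only one of the 4 past the threshold, against 28% of all tested probes. Differences among the Id genes were not tested.

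Many of these ratios differed between arrays 1 and 2 and arrays 3 and 4. Channel orientation, label wording and the numbers of values and of floor values all differ between these pairs and cannot be told apart as sources. The orientation term passed for 18 of the 34 tested members, against 44.6% of all tested probes. Of the 29 above the floor, 11 had orientation means of opposite sign (37.9%, all probes 39%). Over the 29 probes, which share the same arrays and are not replicates, the correlation (Pearson's r) within an orientation was 0.96 for arrays 1 and 2 and 0.91 for the other pair, and it was -0.48 to -0.32 across orientations. These values rested in part on Chrdl1. Without it r was 0.89 for arrays 1 and 2, 0.69 for arrays 3 and 4, and 0.48 to 0.83 across orientations, so the value for arrays 3 and 4 lay within the range across orientations. Over all 13191 probes above the floor, r was 0.84 for arrays 1 and 2 and 0.91 for arrays 3 and 4. Across orientations it was only 0.11 to 0.27 over these probes.

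**Figure D3:**
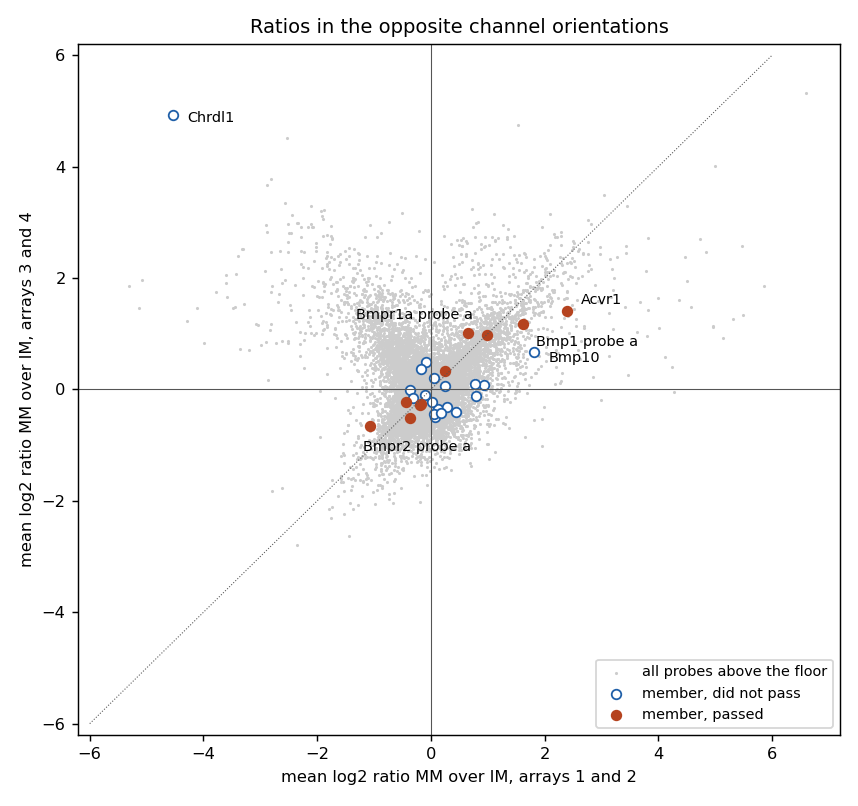
Mean log2 ratio, MM over IM, of arrays 1 and 2 (x axis) against arrays 3 and 4 (y axis) for all 13191 probes above the floor (grey) and the 29 member probes among them, filled where the limma test passed. The dotted line marks equal values. The 10 members that passed lie in the quadrants of equal sign, and Chrdl1 stands alone at -4.53 and 4.93.

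Of the 10 calls, 2 were kept without array 1, 1 without array 2, 5 without array 3 and 2 without array 4. Probe b of Bmpr1a was called without each array in turn (limma adjusted p = 0.0287 to 0.0346). Bmp1 probe a was called except without array 2 (adjusted p = 0.0524). Acvr1 and Bmpr2 probe a were called without array 3 (adjusted p = 0.0461 and 0.0478) and not without array 1, 2 or 4 (up to 0.0618 and 0.0637). The same held for probe a of Bmpr1a (0.0335 without array 3, up to 0.0941 otherwise). Tgfb2, Acvrl1, Tgfbr2 probe a, Smad2 and Id2 were not called without any of the arrays (adjusted p = 0.0564 to 0.162). No value changed sign, and over all probes the calls fell to 794 to 1031 higher and 423 to 636 lower.

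Other genes of the pathway were taken from lists of ligands, extracellular modulators, proteases and processing factors, co-receptors, intracellular regulators and targets. Of 125 listed genes, 97 were on the array with 108 probes, and 77 probes were tested. In MM 16 were higher (20.8%) and 13 lower (16.9%), against 13.6% and 14.4% of all tested probes. With the orientation term 25 were higher and 26 lower, and without each array in turn 6 to 7 were higher and 4 to 6 lower. The median of the 75 probes above the floor was 0.04.

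Intracellular regulators had 10 higher (31.2%) and 2 lower (6.25%) of 32 tested probes, with a median of 0.18 (all probes, -0.05). Hdac1, a histone deacetylase recruited by Smad corepressors, was the highest (2.08 ± 0.16, limma adjusted p = 0.00182). Rnf111, the ubiquitin ligase Arkadia that degrades Ski and Skil, followed (1.81 ± 0.11, adjusted p = 0.00167). Chosen after their values were seen, those corepressors were higher in MM as well, with Ski at 0.96 ± 0.09 (adjusted p = 0.00293) and Skil at 0.71 ± 0.07 by one probe (adjusted p = 0.00358). Another probe of Ski read 0.20 and 0.10 on arrays 1 and 2 with no value on the others. Another probe of Skil read -0.26 ± 0.38 and did not pass (adjusted p = 0.351), and with the orientation term it was called lower (adjusted p = 0.016). The phosphatase gene Ppm1a was high by one probe (1.72 ± 0.88, adjusted p = 0.0438) and did not pass by another (0.21 ± 0.13, adjusted p = 0.103). Dab2, an adaptor that links TGF-beta receptors to Smads, was lower by one probe (-1.31 ± 0.54, adjusted p = 0.0267). Its other probe read 0.05 and -0.55 on arrays 1 and 2 with no value on the others.

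The list of proteases and processing factors had 4 lower (57.1%) and 0 higher of 7 tested probes for 6 genes (median -0.34). Of all tested probes 14.4% were lower and 13.6% higher. The protease gene Bmp1, higher in MM, is a member and was not on this list. Pcsk5, a proprotein convertase, was 2.69-fold higher in IM (-1.43 ± 0.26, limma adjusted p = 0.00496). Furin was lower by 1 probe (-0.42 ± 0.17, adjusted p = 0.0314). Another Furin probe had opposite signs in the orientations (-2.16, -1.51, 2.43 and 2.09) and did not pass (0.21 ± 2.38, adjusted p = 0.919). The extracellular modulators had 5 lower (38.5%) and 2 higher (15.4%) of 13 (median -0.34). The small proteoglycans Bgn (-1.21 ± 0.26, adjusted p = 0.00699) and Dcn (-1.03 ± 0.55, adjusted p = 0.0493), which bind TGF-beta, were lower in MM. Thbs1, thrombospondin, which activates latent TGF-beta, was higher (1.14 ± 0.35, adjusted p = 0.0141). Other ligands and cofactors (2 tested probes) and co-receptors (6 tested probes) had no probe past the threshold.

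Of 17 tested target probes 4 were higher (23.5%) and 2 lower (11.8%), with a median of 0.04, against 13.6% and 14.4% of all tested probes. The higher ones were led by Snai2, a repressor in cells leaving an epithelium (1.77 ± 0.80, limma adjusted p = 0.0336), and Nkx2-5, a heart factor (1.32 ± 0.45, adjusted p = 0.018). Each of these targets also answers to other signals.

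**Figure D4:**
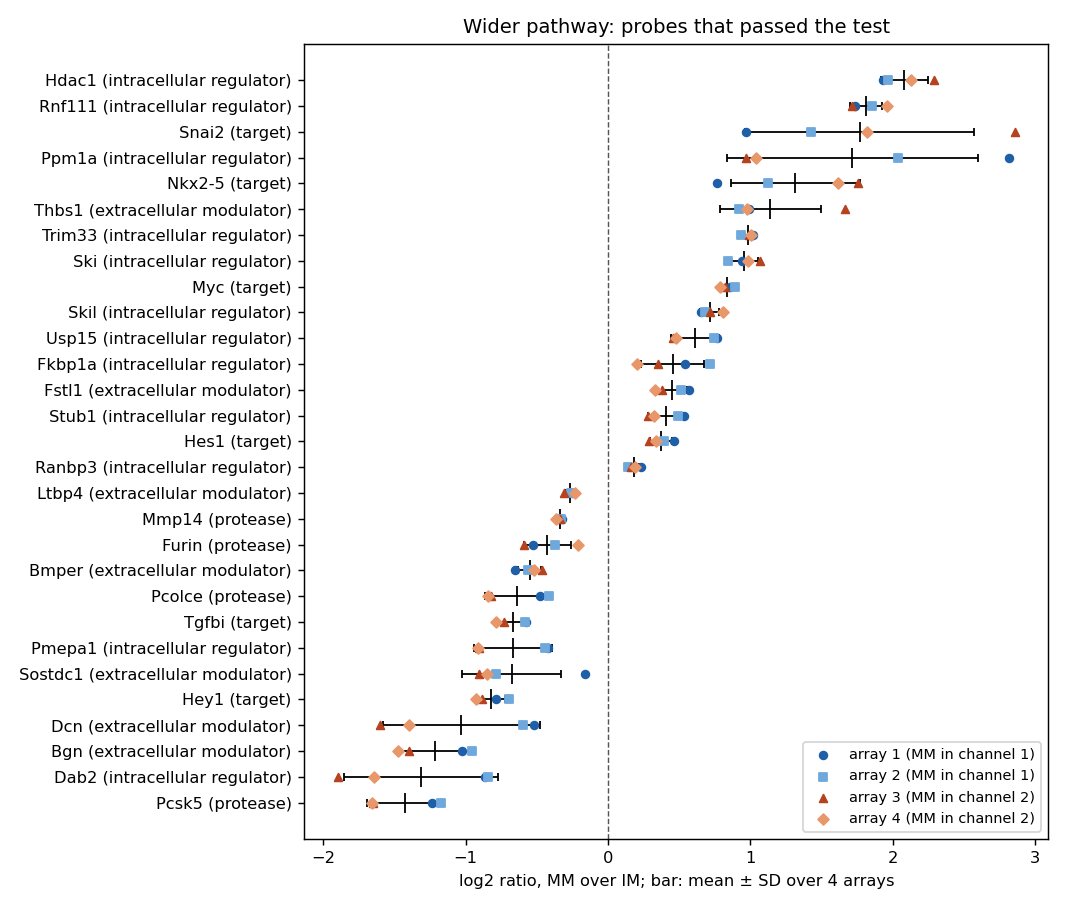
Log2 ratio, MM over IM (x axis), for the 29 probes of the wider pathway lists that passed the limma test (y axis), with symbols for the 4 arrays and bars for the mean ± SD. Hdac1 is highest at 2.08 and Pcsk5 lowest at -1.43, and every probe drawn has its 4 values on the same side of 0.

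Markers of neighbouring tissues also differed between the dissections. In MM, 9 of 13 tested probes of endoderm and liver were higher and 0 lower (range -0.27 to 2.81), and 3 of 5 of limb bud were higher (range -0.16 to 5.96). In IM, 6 of 11 tested somite and muscle probes (range -2.57 to 0.97) and 6 of 10 neural probes (range -0.97 to 1.58) were higher, with 1 of each higher in MM. Of 7 erythroid probes 2 were lower in MM and 0 higher (range -0.85 to 0.30), and of 2 leukocyte probes 1 was lower (range -0.53 to -0.11). Their part in the ratios of the signalling genes was not tested.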

How the data were processed

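Each array of the deposited table gives a log2 ratio per probe. The authors, per the labels' protocols, quantified spots with Imagene 5.5, reversed the channels of arrays 3 and 4, fitted a lowess curve with 20.0% of the data per point to adjust the control value, and set control values under 10 to 10. No source used here states background correction, flags or filters. To find the log base, values were raised from base 2, and 98.9% to 100% of those between the floor and a ratio of 1 came out as whole thousandths (tolerance 0.01). No intensities were used here, so the number of arrays limits the precision.

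Probes with 4 values (14184 of 22702) were fitted with limma 3.58.1 in R 4.3.3, intercept only, with Benjamini-Hochberg adjustment. This keeps the difference between orientations in the error; a fit with an orientation term was an alternative, since its residual comes only from arrays of the same orientation. Other alternatives concerned the floor, missing values, centring, scaling, the variance prior, arrays left out, and each orientation alone. The fits were tested on simulated data. Symbols came from the platform annotation, where 17252 probes had 1, 156 several and 5294 none, and all 60 member probes matched RefSeq by gene ID with 0 symbols changed. A probe with several symbols was left out of the members and lists. Members passing the test, at the floor, with orientation means over 1 in size and opposite in sign, or with disagreeing probes were described singly, and of the wider lists those called at a mean of 1 or more in size. Values of other members and of Six2, Gdnf and Wt1 were added after they were seen. The members and lists were chosen with earlier results of these data known.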

Additional observations from a re-analysis of the deposited data

How the results depend on the processing

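With the orientation term, calls rose to 11 higher and 11 lower for the members, 25 and 26 for the wider pathway and 3371 and 5408 for all probes. Without each array in turn the ranges were 1 to 4 higher and 0 to 1 lower for the members (10 to 12 of 34 at an unadjusted limma p under 0.05), 6 to 7 and 4 to 6 for the wider pathway, and 794 to 1031 and 423 to 636 for all probes. On arrays 1 and 2 alone 9 of the 34 tested members were higher and 4 lower, beside 2709 and 2905 of all 14184 tested probes. On arrays 3 and 4 alone 7 members were higher and 14 lower. The wider pathway had 25 and 23 there, and all probes 3341 and 4360. With each orientation averaged to 1 value, limma called 0 in every set and direction, and 5 members, 13 wider probes and 1526 of all probes had an unadjusted p under 0.05; that fit has few degrees of freedom, so its 0 calls decide little. Admitting probes with 3 or more values left 2 members lower (Tgfb2 and Bmpr2 probe a, without Acvrl1, Tgfbr2 probe a and Smad2), and centring left 3 (without Acvrl1 and Smad2). Over all probes, 1499 of 17369 were lower with 3 or more values admitted and 1476 of 14184 with centring. The other counts were within 1.5 times the main ones. The signs turned for Bmp5 (3.74) and Chrdl1 (-4.53) on arrays 1 and 2 alone and for Id3 (-0.41) on arrays 3 and 4 alone, all called there and not in the fit of 4 arrays. The cause of these changes was not tested. The 10 called members kept their sign under every alternative. Each value is a ratio within an array, so the test is itself paired by array. The table holds no signals, so depth over background is unknown.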
